A study of Mus musculus with 12 samples.

Results

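Wnt proteins are secreted, lipid-modified growth factors that bind Frizzled receptors on the cell surface. With the co-receptors Lrp5 and Lrp6 they block the destruction of beta-catenin, which then enters the nucleus and activates target genes together with Tcf/Lef factors. Other Wnt signals run without beta-catenin and act on cell polarity and movement. R-spondins strengthen the response, while Wif1 and many, but not all, of the Sfrp and Dkk proteins weaken it. In embryonic connective tissue the pathway is best known for its part in limb, bone and fat cell development.

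The Wnt genes described here were the probe sets with exactly 1 gene symbol that named a Wnt, Frizzled (Fzd), Dickkopf (Dkk), secreted Frizzled-related (Sfrp) or R-spondin (Rspo) gene by number, or Wif1, Lrp5, Lrp6, Dact1, Dact3, Axin1, Axin2, Lef1, Tcf7, Tcf7l1, Tcf7l2 or Ctnnb1. This gave 49 of 16755 probe sets, each for a different gene, chosen by name and not by any measured value. They comprised 19 Wnt ligands, 4 R-spondins, 9 Frizzled receptors, 2 co-receptors, 4 Sfrp and 3 Dkk genes and Wif1. The others were the 3 cytoplasmic regulators Axin1, Axin2 and Dact1, beta-catenin itself (Ctnnb1) and 3 Tcf/Lef factors. Dact3 and Tcf7 had no probe set of 1 symbol and were not analysed here.

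The study asked which genes depend on p21-activated kinase 1 (Pak1) with and without ionizing radiation (IR), in murine embryonic fibroblasts (MEFs), connective tissue cells grown from embryos. Embryos were C57Bl6J at embryonic day 13.5, and every culture had been immortalised with SV40 T antigen, a protein known to inactivate p53 and the retinoblastoma protein. Whether p53 was inactive in these cultures was not tested here. The study reports p53 signaling as the top pathway among its Pak1-dependent genes that responded to IR. The groups were Pak1-null MEFs after irradiation (KO-IR), Pak1-null MEFs left untreated (KO), irradiated wild-type MEFs (WT-IR) and untreated wild-type MEFs (WT), with 3 Affymetrix Mouse Exon 1.0 ST arrays each. Pak1 was ablated in the whole mouse, so the null cells had lacked it throughout development. Neither the radiation dose and the time to harvest nor the number of embryos or immortalised lines per genotype could be taken from the labels or methods. P-values therefore measure the spread between these arrays, and loss of Pak1 cannot be told apart from other differences between the KO and WT lines. The study's own list of the most down-regulated genes in KO vs WT holds the Y-linked Eif2s3y, together with Ddx3y and Uty. Whether the lines differ in sex was not tested. Pak1 had 0 probe sets of 1 symbol, so the genotypes were not checked here on Pak1 itself and were taken from the labels. Probe sets with several symbols or none were not used for such a check. The study lists PAK1 among the changed target molecules of its unirradiated comparison. The study itself reports a western blot of PAK1 protein in the WT and Pak1-KO MEFs.

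Values are log2 and were centred by the authors on each probe set's median over the 12 arrays, so that 0 marks the middle of a gene's own range. They give no absolute signal, and levels are not compared between genes. Array medians lay between -0.0201 and 0.018, and arrays of the same group correlated at 0.836 to 0.917 across probe sets. Fibroblast markers moved with genotype in both directions. The mean level of 13 of them ran from -0.229 to -0.217 in KO-IR, from -0.148 to -0.0925 in KO, from 0.127 to 0.146 in WT-IR and from 0.122 to 0.181 in WT. In KO vs WT 4 of these 13 (30.8%) passed an adjusted p of 0.05 higher, against 21.5% of all probe sets. They were Thy1 (log2 fold change 1.29), Col1a1 (0.80), Pdgfrb (0.38) and Fn1 (0.33). Lower were 5 (38.5%, against 21.7%), among them Pdgfra (-2.33), Prrx1 (-2.10) and Col3a1 (-1.14). The median log2 fold change over the 13 was 0.01 in KO vs WT and 0.02 in KO-IR vs WT-IR. Of the other marker lists, 2 of 5 epithelial genes passed higher (40%, Krt19 at 2.76), against the same 21.5%. So did 1 of 4 endothelial (25%) and 1 of 4 skeletal muscle genes (25%). Neural and Schwann genes split 2 of 7 higher (28.6%, Nes at 1.78 and Erbb3 at 1.76) and 2 of 7 lower (28.6%, Sox2 at -3.62). Of 5 macrophage genes 1 passed lower (20%, against 21.7%), Csf1r at -2.26. On lists this short a single gene shifts the share widely. Mean levels of the epithelial list were 0.237 to 0.343 in KO-IR, 0.315 to 0.342 in KO, -0.388 to -0.336 in WT-IR and -0.263 to -0.235 in WT, and those of the macrophage list were -0.187 to -0.158, -0.254 to -0.219, 0.207 to 0.26 and 0.216 to 0.266 in the same order of groups. In KO vs WT the median log2 fold change was 0.06 over the epithelial list and -0.03 over the macrophage list, far smaller than the changes of Krt19 and Csf1r. Centred values cannot show whether a marker was absent. The part of these markers in the Wnt gene results was not tested, and in bulk RNA fewer cells of a type and less RNA per cell cannot be told apart.

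Promoter sequence is shown for 3 genes on which the results turn: Wnt10b and Dact1, both lower in Pak1-KO MEFs, and Wnt9a, which differed between genotypes in its value after irradiation. Fzd6 and Rspo2, which also differed between genotypes, had no promoter window matched by symbol. The 3 windows come from RefSeq on build GRCm38.p6 and end at the base before the annotated gene. Wnt10b is at chr15:98778207-98778400 on the minus strand, Dact1 at chr12:71309634-71309883 on the plus strand and Wnt9a at chr11:59306680-59306848 on the plus strand. Capitals mark GC boxes (GGGCGG or CCGCCC, which may overlap).
Wnt10b: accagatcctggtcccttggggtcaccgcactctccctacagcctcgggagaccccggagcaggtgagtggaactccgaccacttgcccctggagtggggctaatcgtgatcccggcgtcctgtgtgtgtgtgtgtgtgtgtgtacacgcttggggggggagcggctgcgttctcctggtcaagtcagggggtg
Dact1: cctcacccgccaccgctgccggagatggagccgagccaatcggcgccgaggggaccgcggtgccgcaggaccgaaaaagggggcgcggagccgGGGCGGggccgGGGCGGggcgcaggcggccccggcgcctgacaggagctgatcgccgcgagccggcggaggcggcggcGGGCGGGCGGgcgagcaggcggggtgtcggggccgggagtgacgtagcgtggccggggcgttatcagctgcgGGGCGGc
Wnt9a: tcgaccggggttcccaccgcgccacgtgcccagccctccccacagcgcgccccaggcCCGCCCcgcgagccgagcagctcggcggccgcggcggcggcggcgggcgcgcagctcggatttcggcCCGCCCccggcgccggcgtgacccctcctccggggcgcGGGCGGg
The Dact1 window of 250 bases held 5 GC boxes at a GC content of 80.4%, the Wnt9a window of 169 bases held 3 at 84.6%, and the Wnt10b window of 194 bases held 0 at 63.9%. The TCF/LEF core letters CTTTGAT or CTTTGAA, with ATCAAAG and TTCAAAG on the other strand, occurred in none of the 3.

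RefSeq promoters matched 32 of the 49 genes by symbol, with 40 windows, each counted over its full 250 bases before a start of transcription, including the bases of Wnt10b and Wnt9a that lie inside the annotated gene and are not printed. TCF/LEF letters were present in 2 of these 40 windows (5%), those of Wnt11 and Wnt5b, and in 7.48% of all 32851 mouse windows. A GC box was present in 30 of the 40 (75%), against 32.7% of all windows, and the median GC content was 68.6%, against 52.4%. The GC box was chosen for display after the sequences had been seen. A match is a description of the letters only.

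In KO vs WT, 4 of the 49 Wnt genes were called, that is, they passed a Benjamini-Hochberg adjusted p of 0.05 over all probe sets in limma and a 2-fold change. Over all probe sets 4.42% were called, and over the Wnt genes 8.16%. Fzd6 was up-regulated, and the ligand Wnt10b, the R-spondin Rspo2 and the Dishevelled-binding protein Dact1 were down-regulated. In KO-IR vs WT-IR the called Wnt genes were also 4, against 5.06% of all probe sets, and they were the same 4 genes in the same directions. Irradiated and untreated arrays are separate here, but they may come from the same lines, the number of which is not given. The median log2 fold change of the 49 was -0.04 in KO vs WT and 0.01 in KO-IR vs WT-IR, against -0.02 and 0.01 over all probe sets.

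By adjusted p alone 21 Wnt genes differed in KO vs WT (42.9%), against 43.2% of all probe sets, so the share was close to the background. Of these, 7 were higher (14.3%, against 21.5% of all) and 14 were lower (28.6%, against 21.7%). In KO-IR vs WT-IR 22 passed (44.9%, against 44.6% of all), 8 of them higher (against 23.4%) and 14 lower (against 21.2%). The arrays of the 2 genotypes did not overlap for 22 Wnt genes in KO vs WT (44.9%, against 51.1% of all probe sets) and for 27 in KO-IR vs WT-IR (55.1%, against 51.8%). By the methods' t-test 16 Wnt genes passed in KO vs WT, with Fzd2, Fzd8, Lef1, Rspo1 and Sfrp2 lost and 0 gained. By that test 21 passed in KO-IR vs WT-IR, with the 3 genes Sfrp4, Tcf7l1 and Tcf7l2 lost and 2 gained. The median size of the log2 fold change was 0.15 among the Wnt genes and 0.13 over all probe sets in KO vs WT, and 0.18 and 0.13 in KO-IR vs WT-IR.

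**Figure D1:**
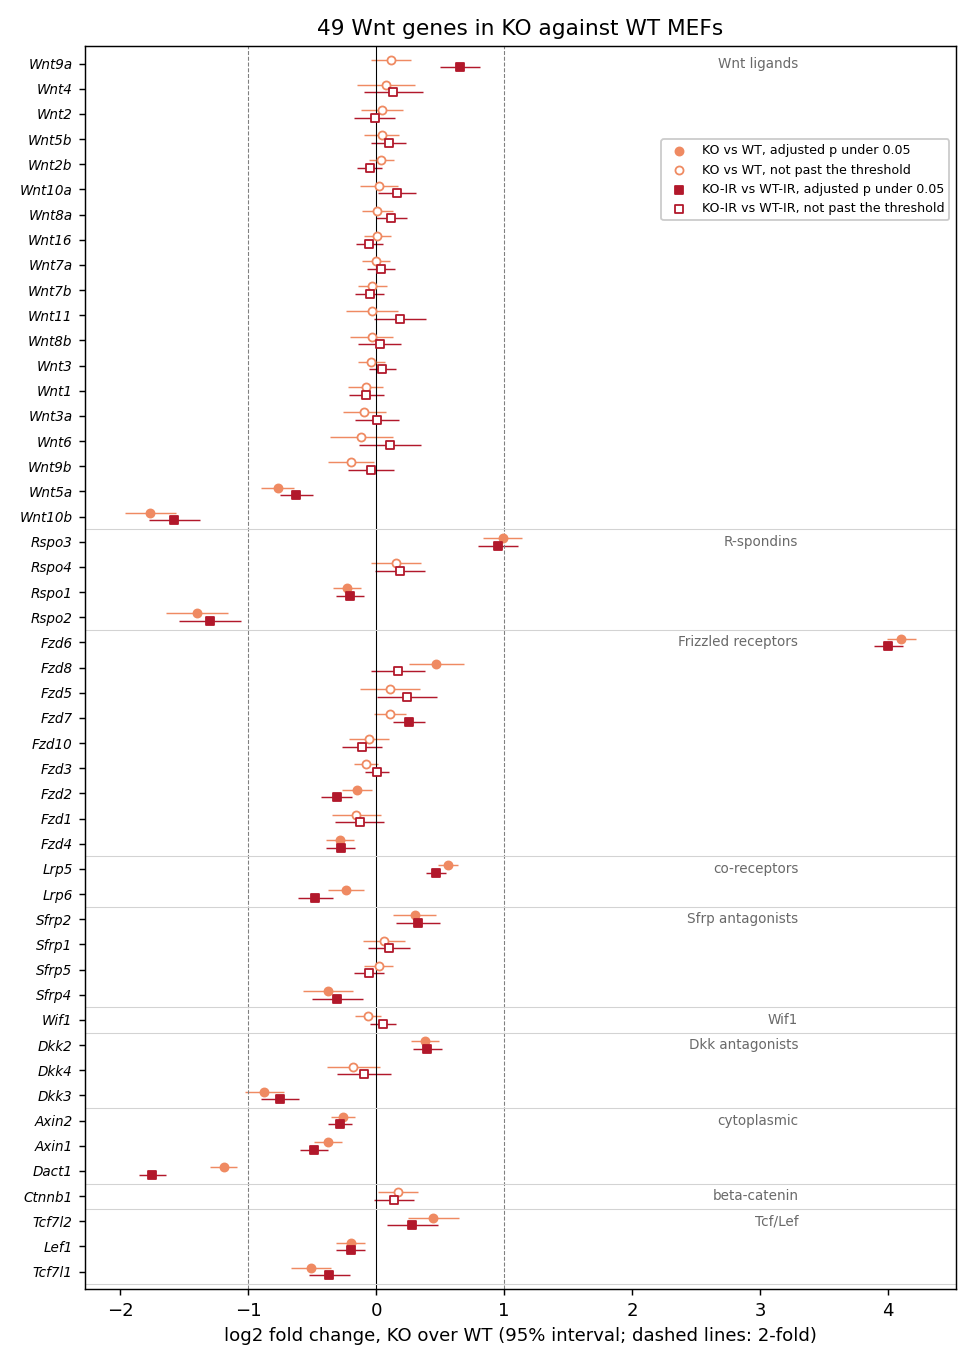
Log2 fold changes of the 49 Wnt genes with 95% intervals from limma, KO over WT (circles) and KO-IR over WT-IR (squares), grouped by role from ligands at the top to Tcf/Lef factors at the bottom. Filled symbols passed an adjusted p of 0.05; Fzd6 lay near 4 in both comparisons, Wnt10b, Rspo2 and Dact1 lay left of the lower 2-fold line, and most ligands lay near 0.

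Among the Wnt ligands, Wnt10b, which in mice favours bone over fat cell formation, was down-regulated in Pak1-KO MEFs. Wnt10b levels were -0.83, -0.97 and -0.85 in KO-IR, -1.04, -0.63 and -0.95 in KO, 0.63, 0.70 and 0.74 in WT-IR and 0.98, 0.89 and 0.81 in WT. All 6 Pak1-KO arrays lay below all 6 WT arrays. The log2 fold change was -1.77 (SE 0.09, adjusted p = 1.38e-08, limma), or 3.40-fold lower, in KO vs WT and -1.58 (SE 0.09, adjusted p = 3.2e-08), or 2.99-fold lower, in KO-IR vs WT-IR. Wnt10b (chr15:98770712-98778206) lies 11650 bases from Wnt1, the founding mouse Wnt gene, with 0 protein-coding genes between them. Wnt1 itself had a log2 fold change of -0.08 in KO vs WT (adjusted p = 0.344, limma).

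Wnt5a, a ligand of the beta-catenin-independent branch needed for limb outgrowth, was also lower in Pak1-KO MEFs. Its levels were -0.21, -0.39 and -0.33 in KO-IR, -0.40, -0.48 and -0.35 in KO, 0.40, 0.21 and 0.33 in WT-IR and 0.34, 0.36 and 0.38 in WT, with no overlap between genotypes. The log2 fold change was -0.77 (adjusted p = 3.95e-07, limma) in KO vs WT and -0.62 (adjusted p = 2.29e-06) in KO-IR vs WT-IR, short of 2-fold in both. In KO vs WT the other 17 of 19 ligands did not pass the adjusted p, and their log2 fold changes ran from -0.19 for Wnt9b to 0.12 for Wnt9a. In KO-IR vs WT-IR Wnt9a passed as well, at 0.65 (adjusted p = 9e-06, limma). The median over the 19 ligands was -0.03 in KO vs WT and 0.03 in KO-IR vs WT-IR.

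The R-spondins moved in opposite directions. Rspo2, needed for limb development in mice, had levels of -0.49, -0.88 and -0.68 in KO-IR, -0.85, -0.73 and -0.74 in KO, 0.54, 0.79 and 0.52 in WT-IR and 0.84, 0.55 and 0.49 in WT. The genotypes did not overlap, and Rspo2 was 2.63-fold lower in KO vs WT (log2 -1.40, SE 0.11, adjusted p = 5.67e-07, limma) and 2.46-fold lower in KO-IR vs WT-IR (log2 -1.30, adjusted p = 9.9e-07). Rspo3, needed in mice for blood vessels of the placenta, had levels of 0.51, 0.64 and 0.43 in KO-IR, 0.46, 0.65 and 0.37 in KO, -0.37, -0.49 and -0.41 in WT-IR and -0.51, -0.50 and -0.47 in WT. All Pak1-KO arrays were thus above all WT arrays, and the log2 fold change was 0.99 in KO vs WT (adjusted p = 2.36e-07, limma) and 0.95 in KO-IR vs WT-IR (adjusted p = 3e-07). Rspo3 stood just short of 2-fold, at 1.98-fold and 1.93-fold, and reached it after quantile normalization in KO vs WT (log2 1.00) and when WT array 3, KO array 1 or KO array 3, or in KO-IR vs WT-IR KO-IR array 3, was left out (up to a log2 of 1.05). Rspo1 was lower in KO vs WT (-0.23, adjusted p = 0.00246, limma) and in KO-IR vs WT-IR (-0.20, adjusted p = 0.00465), and Rspo4 did not pass in either comparison.

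**Figure D2:**
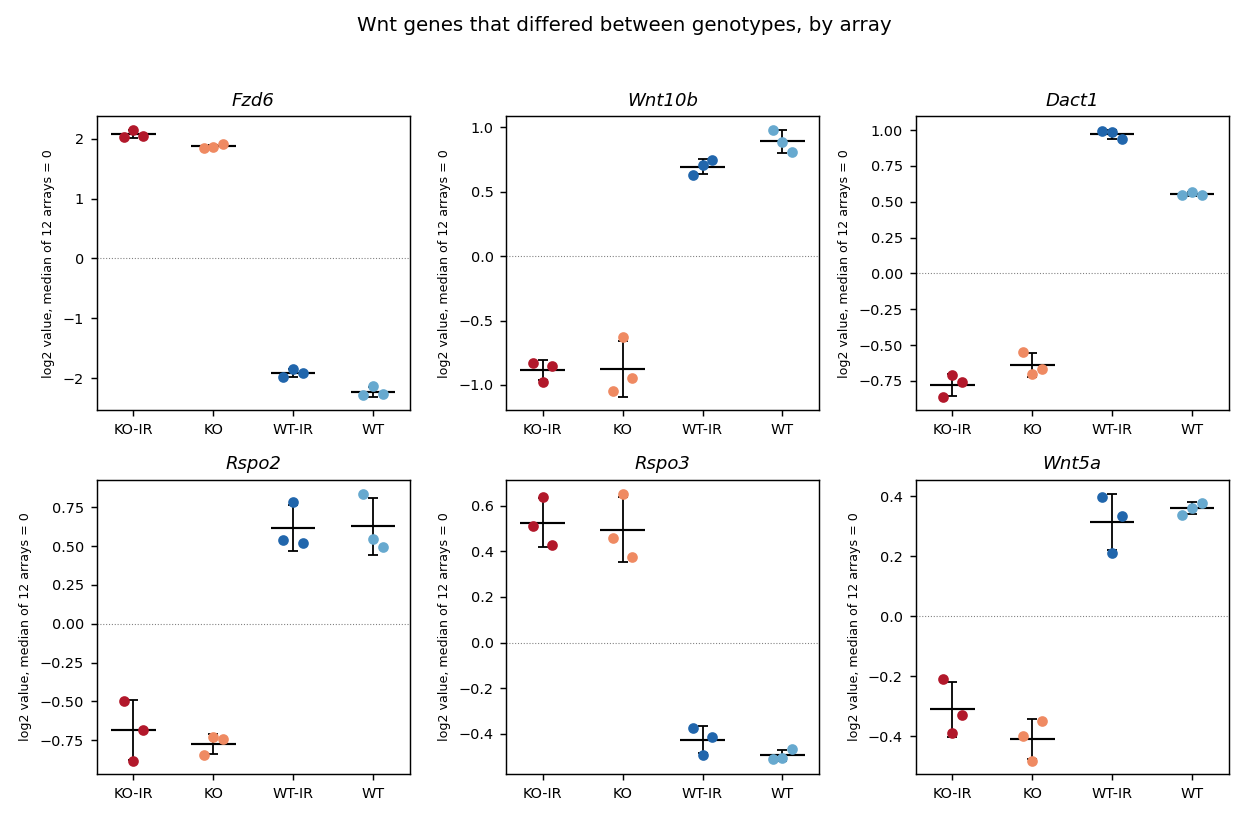
Log2 values of 6 Wnt genes on each array by group (points), with group means and SD (bars, n = 3), each gene on its own scale around its median of 12 arrays. In every panel the Pak1-KO arrays, irradiated or not, lie apart from the WT arrays, with Fzd6 and Rspo3 above them and Wnt10b, Dact1, Rspo2 and Wnt5a below them.

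Of the Frizzled receptors, Fzd6, which orients hair follicles in mouse skin through planar cell polarity, differed most in size. Its levels (probe set 6829952, chr15:39006149-39038192) were 2.03, 2.15 and 2.06 in KO-IR, 1.85, 1.86 and 1.91 in KO, -1.99, -1.85 and -1.92 in WT-IR and -2.28, -2.14 and -2.27 in WT. Every Pak1-KO array was far above every WT array, and within each genotype the irradiated arrays lay above the untreated ones without overlap. Fzd6 was up-regulated 17.2-fold in KO vs WT (log2 4.11, SE 0.05, adjusted p = 1.54e-13, limma), rank 11 by size of change among all probe sets, and 16.0-fold in KO-IR vs WT-IR (log2 4.0, adjusted p = 1.72e-13). After quantile normalization the log2 fold changes were 3.67 and 3.38.

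The other 8 Frizzled genes changed by far less. Fzd4, a receptor of the retinal vasculature that also binds Norrin, was lower in KO vs WT (-0.28, adjusted p = 0.000568, limma) and by the same amount in KO-IR vs WT-IR (-0.28, adjusted p = 0.00058). Fzd8 was higher in KO vs WT (0.47, adjusted p = 0.00152, limma), with 0.17 (adjusted p = 0.201) in KO-IR vs WT-IR. Fzd7 was higher in KO-IR vs WT-IR (0.25, adjusted p = 0.00296, limma), with 0.11 (adjusted p = 0.17) in KO vs WT. Fzd2 was lower in KO-IR vs WT-IR (-0.31, adjusted p = 0.000491, limma) and in KO vs WT (-0.15, adjusted p = 0.0445), and in KO vs WT the adjusted p was above 0.05 without WT array 1 (-0.10, adjusted p = 0.182) and without KO array 1, 2 or 3 (adjusted p = 0.104, 0.0814 and 0.0823), as well as in a fit of the groups compared alone (0.0574), after quantile normalization (0.0516) and with arrays centred on their medians (0.0665). Fzd1, Fzd3, Fzd5 and Fzd10 did not pass in either comparison.

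The co-receptors Lrp5 and Lrp6, which pair with Frizzled receptors in the beta-catenin branch, differed in opposite directions. Lrp5 levels were 0.24, 0.29 and 0.26 in KO-IR, 0.24, 0.30 and 0.20 in KO, -0.20, -0.20 and -0.20 in WT-IR and -0.29, -0.34 and -0.33 in WT. The genotypes did not overlap, and Lrp5 was higher in KO vs WT (0.56, adjusted p = 8.36e-08, limma) and in KO-IR vs WT-IR (0.47, adjusted p = 4.07e-07). Lrp6 levels were -0.21, -0.18 and -0.15 in KO-IR, -0.14, -0.07 and -0.17 in KO, 0.43, 0.32 and 0.14 in WT-IR and 0.10, 0.17 and 0.07 in WT. Lrp6 was lower in KO vs WT (-0.24, adjusted p = 0.00868, limma) and in KO-IR vs WT-IR (-0.48, adjusted p = 4.97e-05), again without overlap.

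The Dkk and Sfrp genes were mixed in direction. Dkk3, a divergent Dickkopf, had levels of -0.34, -0.48 and -0.45 in KO-IR, -0.35, -0.28 and -0.56 in KO, 0.32, 0.28 and 0.37 in WT-IR and 0.47, 0.43 and 0.54 in WT. It was lower in every Pak1-KO array, with a log2 fold change of -0.87 in KO vs WT (adjusted p = 5.46e-07, limma) and -0.75 in KO-IR vs WT-IR (adjusted p = 1.89e-06). Dkk2, which binds Lrp5 and Lrp6, was higher in KO vs WT (0.38, adjusted p = 4.66e-05, limma) and in KO-IR vs WT-IR (0.40, adjusted p = 2.73e-05), and Dkk4 did not pass in either. Sfrp2 was higher in both (0.30, adjusted p = 0.00645, and 0.33, adjusted p = 0.00372, limma). Sfrp4 was lower in both (-0.37, adjusted p = 0.00422, and -0.30, adjusted p = 0.0148, limma), but in KO-IR vs WT-IR not without WT-IR array 2 (-0.20, adjusted p = 0.0593) or KO-IR array 1 or 3 (adjusted p = 0.0504 and 0.0533), nor in a fit of the groups compared alone (0.0585). Sfrp1, Sfrp5 and Wif1, the last a protein that binds Wnts directly, did not pass in either comparison.

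All 3 cytoplasmic regulators were lower in Pak1-KO MEFs. Dact1, which binds Dishevelled, the protein that relays the signal of Frizzled receptors, had levels of -0.86, -0.71 and -0.76 in KO-IR, -0.55, -0.70 and -0.67 in KO, 0.99, 0.99 and 0.93 in WT-IR and 0.55, 0.57 and 0.55 in WT. The genotypes did not overlap, the WT-IR arrays lay above the WT arrays and the KO-IR arrays lay just below the KO arrays. Dact1 (chr12:71309884-71320107) was 2.29-fold lower in KO vs WT (log2 -1.19, SE 0.05, adjusted p = 2.02e-09, limma) and 3.36-fold lower in KO-IR vs WT-IR (log2 -1.75, adjusted p = 5.96e-11). Axin1, the scaffold of the complex that destroys beta-catenin, was lower by smaller amounts (-0.38, adjusted p = 4.3e-05, and -0.48, adjusted p = 4.52e-06, limma).

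Axin2, a related scaffold that is itself induced by beta-catenin and widely used as a readout of the pathway, had levels of -0.16, -0.09 and -0.12 in KO-IR, -0.18, -0.06 and -0.17 in KO, 0.18, 0.13 and 0.17 in WT-IR and 0.06, 0.14 and 0.16 in WT. It was lower in all Pak1-KO arrays, by -0.26 in KO vs WT (adjusted p = 0.000355, limma) and -0.28 in KO-IR vs WT-IR (adjusted p = 0.00016) on the log2 scale. Ctnnb1 levels were 0.11, 0.02 and -0.10 in KO-IR, 0.19, 0.15 and 0.08 in KO, -0.23, -0.13 and -0.02 in WT-IR and -0.12, -0.07 and 0.10 in WT. The groups overlapped, and Ctnnb1 did not pass in KO vs WT (0.17, 95% interval 0.01 to 0.33, adjusted p = 0.082, limma) or in KO-IR vs WT-IR (0.14, interval -0.02 to 0.30, adjusted p = 0.149). Its RNA says nothing of the protein, whose level the pathway controls.

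The Tcf/Lef factors carry beta-catenin to DNA. Tcf7l1, mostly a repressor, was lower in KO vs WT (-0.51, adjusted p = 7.79e-05, limma) and in KO-IR vs WT-IR (-0.37, adjusted p = 0.00104), as was Lef1 (-0.20 in both, adjusted p = 0.00697 and 0.00641). Tcf7l2 was higher in KO vs WT (0.45, adjusted p = 0.00151, limma) and in KO-IR vs WT-IR (0.28, adjusted p = 0.024). Its adjusted p in KO-IR vs WT-IR was above 0.05 without WT-IR array 2 or 3 (adjusted p = 0.0561 and 0.083) or KO-IR array 2 or 3 (adjusted p = 0.058 and 0.0913, with a log2 fold change of 0.17 without KO-IR array 3), and when limma was fitted on the groups compared alone (0.0718).

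Log2 fold changes of the 49 Wnt genes with irradiation ran from -0.20 to 0.42 in WT-IR vs WT and from -0.36 to 0.39 in KO-IR vs KO. No Wnt gene was called in WT-IR vs WT or in KO-IR vs KO in limma or by the methods' t-test (the unpaired test of the study), against 0.00597% and 0.143% of all probe sets in limma. At an unadjusted p of 0.05 there were 9 in WT-IR vs WT (18.4%, against 18% of all) and 10 in KO-IR vs KO (20.4%, against 18.9%). By adjusted p alone 3 Wnt genes differed in WT-IR vs WT, against 2.48% of all probe sets, and 5 in KO-IR vs KO, against 6.3%. Those in WT-IR vs WT were all higher (against 0.848% of all probe sets higher and 1.64% lower), and those in KO-IR vs KO were 4 higher (against 3.38%) and 1 lower (against 2.92%). All of these changes were smaller than 1.5-fold, and the methods' t-test left 0 of the 49 past the adjusted p in either comparison. Irradiated and untreated arrays did not overlap for 16 Wnt genes in WT-IR vs WT (32.7%, against 28.6% of all) and for 12 in KO-IR vs KO (24.5%, against 20.4%).

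Fzd4 rose with irradiation in both genotypes. Its levels were -0.09, 0.02 and 0.02 in KO-IR, -0.26, -0.26 and -0.34 in KO, 0.17, 0.34 and 0.27 in WT-IR and 0.03, -0.02 and -0.02 in WT. Irradiated arrays lay above untreated ones without overlap, with a log2 fold change of 0.27 in KO-IR vs KO (adjusted p = 0.00858, limma) and 0.27 in WT-IR vs WT (adjusted p = 0.0185). In WT-IR vs WT Fzd4 no longer passed without WT array 2 or 3 (adjusted p = 0.0681 and 0.081) or WT-IR array 2 or 3 (adjusted p = 0.0975 and 0.0545). The interaction of genotype and irradiation, the change in KO-IR vs KO minus that in WT-IR vs WT, was 0.00 for Fzd4 (95% interval -0.15 to 0.16).

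Fzd6 also rose, by 0.21 in KO-IR vs KO (adjusted p = 0.0366, limma) and 0.31 in WT-IR vs WT (adjusted p = 0.0101). After quantile normalization the Fzd6 change was -0.09 in KO-IR vs KO (adjusted p = 0.321) and 0.20 in WT-IR vs WT, so that its direction in the Pak1-KO cells depended on the scaling. In KO-IR vs KO Fzd6 also no longer passed in a fit of the groups compared alone (adjusted p = 0.0821), without KO array 1, 2 or 3 (adjusted p = 0.12, 0.1 and 0.0544) or KO-IR array 2 or 3 (adjusted p = 0.127 and 0.0808), and in WT-IR vs WT not without WT array 3 (0.0543) or WT-IR array 2 (0.059).

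Fzd2 fell with irradiation in Pak1-KO MEFs, with levels of -0.23, -0.35 and -0.43 in KO-IR and 0.02, 0.03 and 0.03 in KO. WT-IR arrays were at -0.02, -0.03 and -0.04, below WT arrays at 0.28, 0.12 and 0.12. The log2 fold change was -0.36 in KO-IR vs KO (adjusted p = 0.00211, limma) and -0.20 in WT-IR vs WT (adjusted p = 0.077). The interaction of Fzd2 was -0.16 (95% interval -0.33 to 0.01, adjusted p = 0.48), so a difference between genotypes was not shown.

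Fzd7, of the same subfamily as Fzd1 and Fzd2, rose by 0.22 in KO-IR vs KO (adjusted p = 0.0418, limma). Its levels were 0.23, 0.29 and 0.21 in KO-IR and -0.03, 0.02 and 0.06 in KO, while WT-IR (-0.04 to 0.0022) and WT (-0.24 to -0.01) arrays overlapped. Fzd7 no longer passed whichever KO or KO-IR array was left out (adjusted p from 0.0566 to 0.144), with the replicate block (0.0717), in a fit of the groups compared alone (0.0595), after quantile normalization (0.0747) or with each array centred on its median (0.0548).

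**Figure D3:**
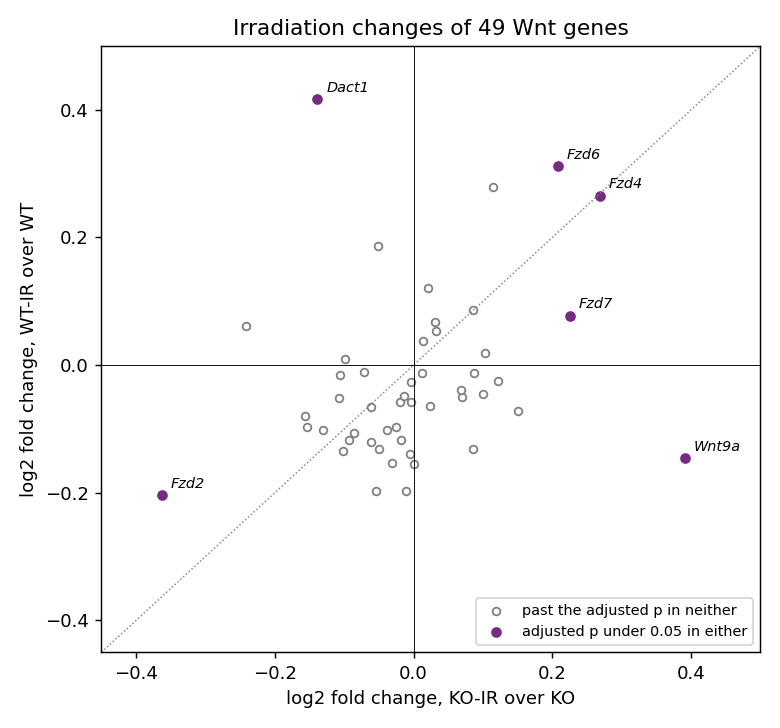
Log2 fold changes of the 49 Wnt genes after irradiation, KO-IR over KO on the horizontal axis and WT-IR over WT on the vertical axis, with a dotted line of equal change. Filled points passed an adjusted p of 0.05 in either comparison; Fzd4 lies on the dotted line, and Dact1 and Wnt9a lie far from it on opposite sides.

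Dact1 and Wnt9a were the Wnt genes for which the irradiation change differed between genotypes. In the interaction 0 of the 49 were called in limma, against 0.149% of all probe sets, and 4 had an unadjusted p under 0.05, against 11.2% of all. By adjusted p alone 2 passed (4.08%, against 1.37% of all), 1 positive (against 1.17%) and 1 negative (against 0.203%). Dact1 rose by 0.42 (SE 0.05, adjusted p = 0.00187, limma) in WT-IR vs WT, and its change in KO-IR vs KO was -0.14 (adjusted p = 0.132). The interaction was -0.56 (SE 0.07, 95% interval -0.71 to -0.40, adjusted p = 0.00153, limma) and stayed under 0.05 in every alternative run for the interaction.

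Wnt9a, a ligand of joint formation that neighbours Wnt3a at a distance of 16097 bases, had levels of 0.54, 0.47 and 0.42 in KO-IR, 0.13, 0.20 and -0.08 in KO, -0.11, -0.29 and -0.13 in WT-IR and -0.09, -0.01 and 0.01 in WT. The KO-IR arrays stood above all others, and the WT-IR arrays lay below the WT arrays. Wnt9a rose by 0.39 in KO-IR vs KO (adjusted p = 0.00746, limma), and its change in WT-IR vs WT was -0.15 (adjusted p = 0.313). The interaction was 0.54 (SE 0.10, 95% interval 0.32 to 0.76, adjusted p = 0.0221, limma). It was lost with the replicate number as a block (adjusted p = 0.0502) and without WT array 2 or 3 (0.0631 and 0.0688), KO array 1 (0.0501), WT-IR array 2 (0.0678) or KO-IR array 2 (0.0578). Wnt3a had log2 fold changes of -0.09 in KO vs WT and 0.01 in KO-IR vs WT-IR and passed in neither. The next smallest interaction p was that of Lrp6 (-0.24, adjusted p = 0.34, limma).

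**Figure D4:**
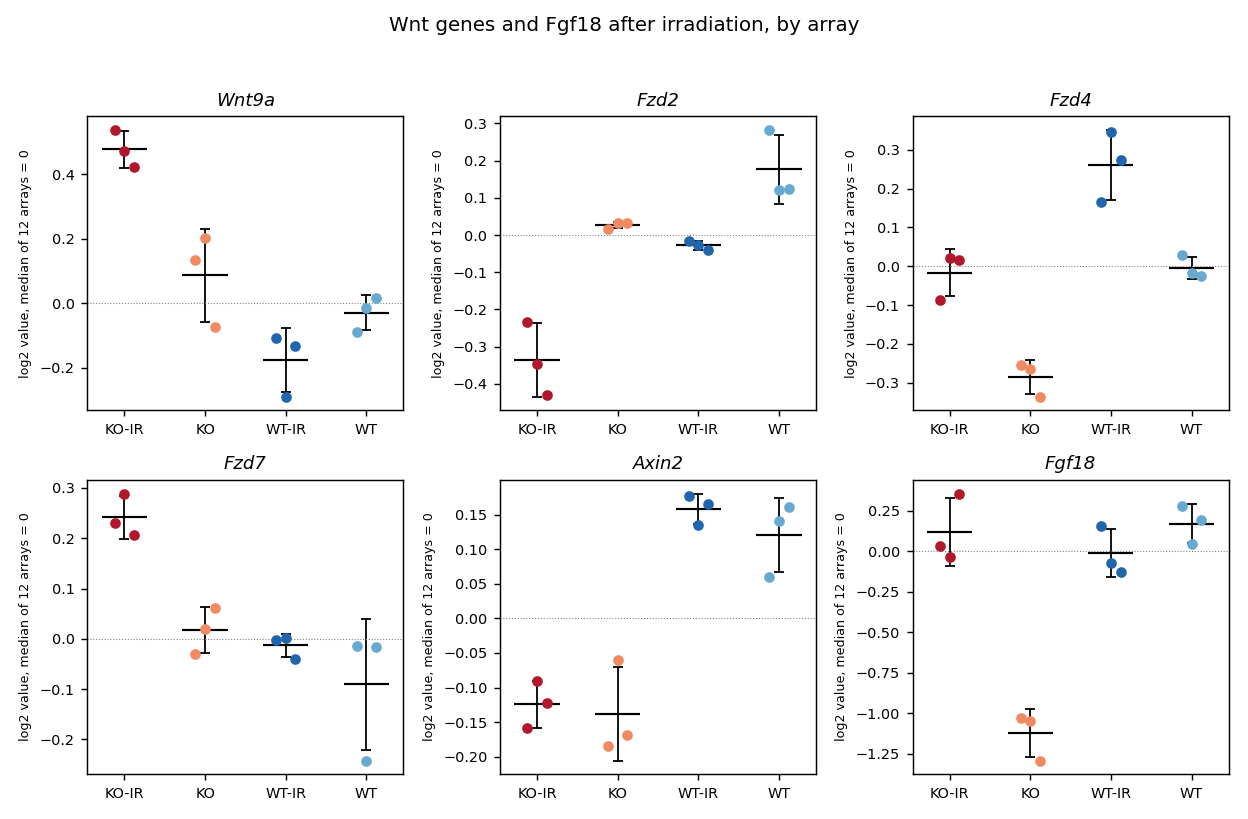
Log2 values on each array by group (points), with group means and SD (bars, n = 3), for 5 Wnt genes and the beta-catenin target gene Fgf18, each on its own scale. Wnt9a is highest in the 3 KO-IR arrays, Fzd4 is higher in irradiated arrays of both genotypes, Axin2 separates by genotype, and Fgf18 is low in the 3 untreated KO arrays.

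Further genes of the pathway were taken from lists of 98 names, of which 82 were measured by 85 probe sets of 1 symbol. In KO vs WT 16 of these were higher and 27 were lower by the adjusted p (18.8% and 31.8%, against 21.5% and 21.7% of all probe sets), with a median log2 fold change of -0.03, against -0.02. None was called higher and 3 were called lower. In KO-IR vs WT-IR 15 passed higher (17.6%, against 23.4%), 1 of them called, and 20 lower (23.5%, against 21.2%), 3 of them called. The background shares of called probe sets in each direction were 2.44% higher and 1.98% lower in KO vs WT, and 2.96% higher and 2.09% lower in KO-IR vs WT-IR.

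Of 3 secretion genes, Notum, which removes the lipid from Wnt proteins, passed lower in KO vs WT (-0.33). Of 11 surface and secreted modulators, the glypican Gpc4 (0.52) and the Dkk receptor Kremen1 (0.51) passed higher and the Wnt inhibitor Apcdd1 (-0.40) lower. Of 11 receptors and polarity genes of the beta-catenin-independent branch, the receptor Ryk (0.33) passed higher, and Vangl2 (-0.70), the formin Daam2 (-0.64) and the Wnt5a receptor Ror2 (-0.56) passed lower. Shares higher and lower in KO vs WT were 0% and 33.3% for secretion and 18.2% and 9.09% for the modulators. For the receptors and polarity genes they were 9.09% and 27.3%, and for all probe sets 21.5% and 21.7%. In KO-IR vs WT-IR the same counts held for these 3 lists, against 23.4% and 21.2% of all probe sets.

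Cytoplasmic transducers and parts of the destruction complex (26 probe sets) split 6 higher and 9 lower in KO vs WT (23.1% and 34.6%, against 21.5% and 21.7% of all probe sets) and 8 higher and 7 lower in KO-IR vs WT-IR (30.8% and 26.9%, against 23.4% and 21.2%). The kinase Csnk1g1 (0.62), the Dishevelled antagonist Nkd2 (0.58) and Apc (0.24) were among those higher, and the ubiquitin ligase Siah1a (-0.84), Amer1 (-0.55) and Dvl2 (-0.52) were among those lower. Nkd2 reached 1.04 in KO-IR vs WT-IR (adjusted p = 3.72e-08, limma) and was called there. Of 14 probe sets for nuclear cofactors, 3 were higher and 3 lower in KO vs WT (21.4% each), close to the shares of all probe sets. In KO-IR vs WT-IR 0 were higher and 2 lower (14.3%), against 23.4% higher and 21.2% lower of all. Bcl9, which binds beta-catenin, changed most, at -0.96 in KO vs WT (adjusted p = 1.65e-07, limma).

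Among 23 reported target genes of beta-catenin, 4 were higher (17.4%, against 21.5% of all probe sets) and 12 lower (52.2%, against 21.7%) in KO vs WT, with a median log2 fold change of -0.14, against -0.02 over all probe sets. Those called lower were Tnfrsf19 (-1.53, adjusted p = 1.66e-11, limma), Fgf18 (-1.29, adjusted p = 1.28e-06) and the Notch ligand Jag1 (-1.07, adjusted p = 4.53e-09). Myc (-0.92), the cyclin Ccnd1 (-0.83) and Vegfa (-0.73) also passed lower, and Twist1 (0.71), Edn1 (0.54), Plaur (0.29) and Ccn4 (0.16) passed higher. Of the targets, 4 were higher in KO-IR vs WT-IR (17.4%, against 23.4% of all) and 8 lower (34.8%, against 21.2%), and their median was -0.07, against 0.01, with Tnfrsf19 (-1.58), Jag1 (-1.12) and Myc (-1.10) called. Many of these genes answer to other pathways too.

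In WT-IR vs WT 0 of the 85 probe sets passed the adjusted p in limma (16 at an unadjusted p under 0.05), against 2.48% of all. In KO-IR vs KO 5 rose (5.88%, against 3.38% of all) and 4 fell (4.71%, against 2.92%), of which Fgf18, a fibroblast growth factor, was the only call. Fgf18 levels were 0.03, -0.03 and 0.36 in KO-IR, -1.03, -1.05 and -1.29 in KO, 0.16, -0.07 and -0.12 in WT-IR and 0.28, 0.04 and 0.19 in WT. The untreated KO arrays lay far below all others, and the KO-IR arrays overlapped both WT groups. Fgf18 rose by 1.24 in KO-IR vs KO (adjusted p = 5.49e-05, limma, and 0.0816 by the methods' t-test), and its interaction was 1.43 (SE 0.16, adjusted p = 0.000796, limma).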

How the data were processed

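The authors reduced ribosomal RNA, labelled cDNA, used 12 Affymetrix Mouse Exon 1.0 ST arrays and processed them in Gene Spring GX 10.0.2. The deposited log2 values had been centred by the authors on each probe set's median over 12 arrays (largest distance of a median from 0, 5e-07), and run from -3.3 to 3.37. Their absolute signal is not part of the values, so no filter on dim probe sets was applied.

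All 16755 probe sets were fitted with limma 3.58.1 in R 4.3.3 (lmFit and eBayes, means of 4 groups; degrees of freedom were 8 residual and 3.48 prior) in 5 contrasts, with Benjamini-Hochberg adjustment across the whole table within each contrast. Calls required both an adjusted p under 0.05 and at least a 2-fold change. The fit was tested on simulated data. Arrays limit the precision by their number, 3 per group.

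Genes were taken from the symbols of the files, and 49 of 49 matched the mouse annotation of GRCm38.p6, which gave coordinates. The genes, the pathway and marker lists and the tests were chosen with earlier results of these data known. Values on every array were given for called genes, for those with the smallest p in the interaction and irradiation contrasts, and for Axin2 and Ctnnb1; Wnt5a, Rspo3, Lrp5, Dkk3, Fzd7 and Fgf18 were added after their values had been seen. Alternatives were the methods' t-test, only the groups compared, the replicate number as a block, quantile normalization, arrays centred on their medians, fold thresholds of 1.5 or none, robust eBayes, probe sets of 1 symbol, and each array left out in turn. Figures were drawn with matplotlib 3.10.9 in Python 3.11.15.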

Additional observations from a re-analysis of the deposited data

Results flagged for a closer look

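The change with irradiation differed between genotypes, by the interaction in limma, for 2 Wnt genes and 4 further pathway genes. For Dact1 the interaction was -0.555 on the log2 scale (adjusted p = 0.00153), with -0.139 in KO-IR vs KO and 0.417 in WT-IR vs WT. For Wnt9a it was 0.537 (adjusted p = 0.0221), with 0.391 in KO-IR vs KO and -0.146 in WT-IR vs WT. For Fgf18 it was 1.43 (adjusted p = 0.000796), with 1.24 and -0.184 in the same order. For Edn1, a vasoactive peptide gene, it was -0.541 (adjusted p = 0.0123), with -0.641 and -0.0998. For Nkd2 it was 0.459 (adjusted p = 0.0221), with 0.296 and -0.163, and it was lost after quantile normalization (adjusted p = 0.0728) and without any of 8 arrays (WT 1, 2 or 3, KO 2 or 3, WT-IR 2, KO-IR 2 or 3). For Fosl1, an AP-1 factor, it was 0.406 (adjusted p = 0.046), with 0.359 and -0.0468, and it was lost with the replicate block (adjusted p = 0.0625), after centring each array on its median (0.0556) or quantile normalization (0.0619), and without any of 10 arrays (all but KO 2 and KO-IR 1). Groups of 3 arrays are too small for a check of single outlying arrays.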

How the results depend on the processing

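Between genotypes 4 Wnt genes were called without irradiation (KO vs WT) and 4 with it (KO-IR vs WT-IR), and 0 were called for irradiation in WT MEFs, for irradiation in Pak1-KO MEFs or for the interaction. A threshold of 1.5-fold gave 7 and 8 in the genotype comparisons, and no fold threshold gave 21, 22, 3, 5 and 2 in the 5 comparisons in this order. Quantile normalization gave 5 in KO vs WT, and leaving out 1 array gave 4 to 5 in each genotype comparison and 0 in the other 3. Fzd6, Wnt10b, Rspo2 and Dact1 were called in both genotype comparisons under every alternative run, and with the 2-fold threshold kept the addition was Rspo3. The 1.5-fold threshold added Rspo3, Dkk3 and Wnt5a in both comparisons, and Wnt9a in KO-IR vs WT-IR. Over the 53 changes of single Wnt genes past the adjusted p, 636 alternative values kept their direction and passed, 60 no longer passed and 1 reversed, that of Fzd6 in KO-IR vs KO after quantile normalization (-0.0923). Of these 60, 16 were under the methods' t-test and 5 in limma on the groups compared alone, and the cause was not tested. A pairing of arrays by replicate number was not shown and is not excluded. Deviations of same-numbered arrays correlated at -0.144 to 0.211 in 18 pairs, 3 of them over 0.1, and 4 of 12 arrays correlated best with their own number. With the replicate number as a block the counts were 4, 4, 0, 0 and 0, and Wnt genes past the adjusted p alone numbered 4 for irradiation of Pak1-KO MEFs and 1 for the interaction, against 5 and 2 without it. The filters on dim probe sets usual for arrays could not be run on centred values. Signal over background is unknown for every gene.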
